A study of Mus musculus with 6 samples.

Results

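The mitosis genes are 38 genes that act when a cell divides its copied chromosomes between 2 daughter cells, out of 27376 genes named on the array. They were chosen by name, and a member was read by every array probe annotated with its symbol. Where a member had several probes, the probe with the highest mean signal over the 6 arrays stood for it. The measurements are those of induced regulatory T (iTreg) cells from miR-31fl/fl CD4Cre (cKO) mice and miR-31fl/fl control mice, 3 mice of each genotype on a C57BL/6 background, aged 6 weeks. Both genotypes carry the floxed miR-31 allele, and the cKO mice also carry the CD4Cre transgene, which acts from the CD4 promoter during thymic development and so in CD8 as well as CD4 lineage T cells. Naive CD4+CD25- Foxp3gfp- CD62Lhi splenic T cells were sorted and cultured for 4 days with anti-CD3 (5 μg/ml), anti-CD28 (2 μg/ml), TGF-β1 (5 ng/ml) and IL-2 (40 ng/ml in the labels, while the methods of the study state a lower concentration). The labels give no genotype for the control mice, which is taken from the methods of the study, and control mice without the floxed allele or with Cre alone were not analysed here. Total RNA was read on 1 one-colour Agilent array for each mouse. The deletion of miR-31 was not checked here, because no probe of the array is named for it.

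Resting T cells do not divide, and stimulation through the T-cell receptor brings them into the cell cycle. At the entry into mitosis CDK1 pairs with cyclins, the kinetochores attach to the spindle, and a checkpoint holds the sister chromatids together until every chromosome is attached. The anaphase-promoting complex then marks cyclin B and securin for destruction, separase cuts cohesin, and the spindle midzone directs the cleavage of the cell. The mRNAs of these proteins are made late in the cycle, so in a bulk sample their level follows both the share of cells in G2 and mitosis and the RNA in each cell. In these bulk cultures fewer dividing cells and less RNA per cell cannot be told apart.

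Many promoters of late cell-cycle genes carry a cell-cycle homology region (CHR), a short element near the gene start to which the MuvB complexes with B-MYB and FOXM1 bind, and upstream boxes for the factor NF-Y. Promoter windows of 250 bases before to 50 bases after the start were taken from RefSeq (GRCm38.p6), which gave 36 windows for 33 of the members. The CHR was searched as TTTGAA and as TTTAAA, the NF-Y box as CCAAT, each on both strands. TTTAAA reads the same on both strands, and 1 of the 44 CHR matches in members overlapped a CCAAT match. TTTGAA was present in 77.8% of the members' windows and in 17.9% of all 32851 windows of the same length. Either form was present in 86.1% of the members' windows against 27.6% of all windows. CCAAT was present in 83.3% against 37.4%, and 2 or more CCAAT matches in 58.3% against 11.7%. A CHR form together with CCAAT was present in 77.8% of the members' windows, in 10.73% of all windows and in 17.1% of 35 windows that the table held for 30 of the 38 DNA replication genes, which are transcribed earlier in the cycle. These are matches of letters, and binding was not measured.

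The following 30-base stretches show the element in the 9 members in which it lay within 50 bases upstream of the start with the whole stretch before the start. They run 5′ to 3′ along the gene's strand in GRCm38.p6, with the CHR in capitals (TTCAAA is TTTGAA read on the other strand).
Ccnb1 (chr13:100786511-100786540, minus strand): agcggcccggggTTTAAAcctaagcccggc
Plk1 (chr7:122159394-122159423, plus strand): gcgggtttgtatTTTAAAtccccgcggcca
Bub3 (chr7:131560315-131560344, plus strand): gagccgttggcgTTCAAAatcagccaatga
Cdc20 (chr4:118437344-118437373, minus strand): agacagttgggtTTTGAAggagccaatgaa
Ube2c (chr2:164769888-164769917, plus strand): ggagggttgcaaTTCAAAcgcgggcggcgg
Espl1 (chr15:102296254-102296283, plus strand): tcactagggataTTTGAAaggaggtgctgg
Kif11 (chr19:37376351-37376380, plus strand): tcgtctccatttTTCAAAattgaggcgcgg
Prc1 (chr7:80294434-80294463, plus strand): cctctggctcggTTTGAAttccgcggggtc
Top2a (chr11:99024195-99024224, minus strand): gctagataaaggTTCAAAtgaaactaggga
The stretches of Bub3 and Cdc20 also hold a CCAAT after the element. In Cdc20 it lies on the strand of the CHR match and in Bub3 on the opposite strand.

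**Figure D1:**
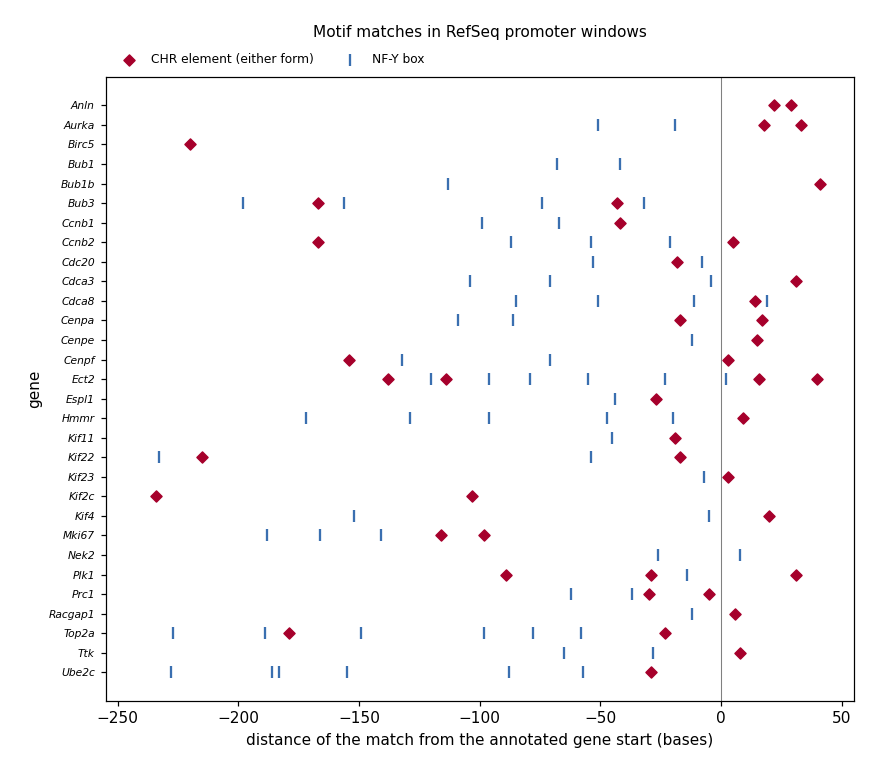
Distance in bases (x axis) of each CHR match (diamonds) and each NF-Y box (vertical ticks) from the annotated start of each member (y axis) with at least 1 match. Of the 44 CHR matches, 31 lay within 50 bases of the start. For the members with 2 windows the matches of both are drawn, and a site that lies in both windows is counted in each.

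Of the 33 members with a window, 28 held a CHR form in it. Their log2 fold changes ranged from −0.59 to −0.11 with a median of −0.31, and those of the 5 members without one (Bub1, Mad2l1, Melk, Nek2 and Nusap1) ranged from −0.41 to −0.24 with a median of −0.37. Members with and without the letters thus covered overlapping ranges. The other 5 members (Aurkb, Ccna2, Incenp, Kif20a and Tpx2) had no entry in the promoter table used here.

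Levels are given as log2 of the background-subtracted signal minus the log2 of the 75th percentile of that array, so that 0 is the 75th percentile and 1 unit is a doubling. They compare 1 probe between arrays, not genes with each other. The arrays held 45018 spots each, their 75th percentiles lay between 987 and 1148, and 48.2% to 56.4% of the spots were well above background by the scanner software. All 38 members were well above background on all 6 arrays, and all were among the 22281 probes tested with limma. The 3 cKO arrays and control array 1 lay on 1 slide and control arrays 2 and 3 on another. The markers of T cells (5 of 5) and of iTreg cells (4 of 4) were well above background on every array, those of NK cells and myeloid cells on no more than 4 arrays, and of 4 B cell markers only Cd79b on all arrays. Of the 3 erythroid markers Hbb-b1 was above background on all arrays, and so were the 2 CD8 markers.

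Each of the 38 mitosis genes had a lower mean in cKO than in control iTreg cells. The log2 fold changes ran from −0.71 for Kif20a to −0.11 for Ube2c with a median of −0.31, so that the cKO level was 61.0% to 92.4% of the control level and 80.4% at the median. Over all tested probes 55.2% had a log2 fold change below 0, and their median was −0.04. In 28 of the 38 members the highest cKO value was below the lowest control value, which holds for 20.7% of the tested probes, and in the other 10 the groups overlapped. An exact permutation test of 3 arrays against 3 cannot give a 2-sided p below 0.10. With limma, 10 of 38 members were lower at an unadjusted p under 0.05, against 11.4% of the tested probes, and 0 were higher, against 11.5%. After Benjamini-Hochberg adjustment over all tested probes 0 of 38 members passed 0.05, against 0.242% of the tested probes. The members' adjusted p values in limma ran from 0.153 to 0.684. The 95% intervals of the members lay between −1.21 and 0.35.

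The 3 cKO arrays were not equally low. The median distance of the members from their control mean was −0.19 on cKO array 1, −0.19 on cKO array 2 and −0.61 on cKO array 3, while it was −0.06, 0.03 and 0.01 on the control arrays. Over all tested probes the same median lay between −0.05 and −0.02 on the cKO arrays. The array cKO 3 held the lowest value of 35 of the 38 members, and its difference from the mean of cKO arrays 1 and 2 had a median of −0.46 on the log2 scale. The range of the 3 control arrays had a median of 0.12. On cKO arrays 1 and 2 together, 29 members lay below all controls, and 32 lay below control array 1, their neighbour on the slide. The matching shares over all tested probes were not computed for the counts of 35, 29 and 32, so these describe the members only.

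**Figure D2:**
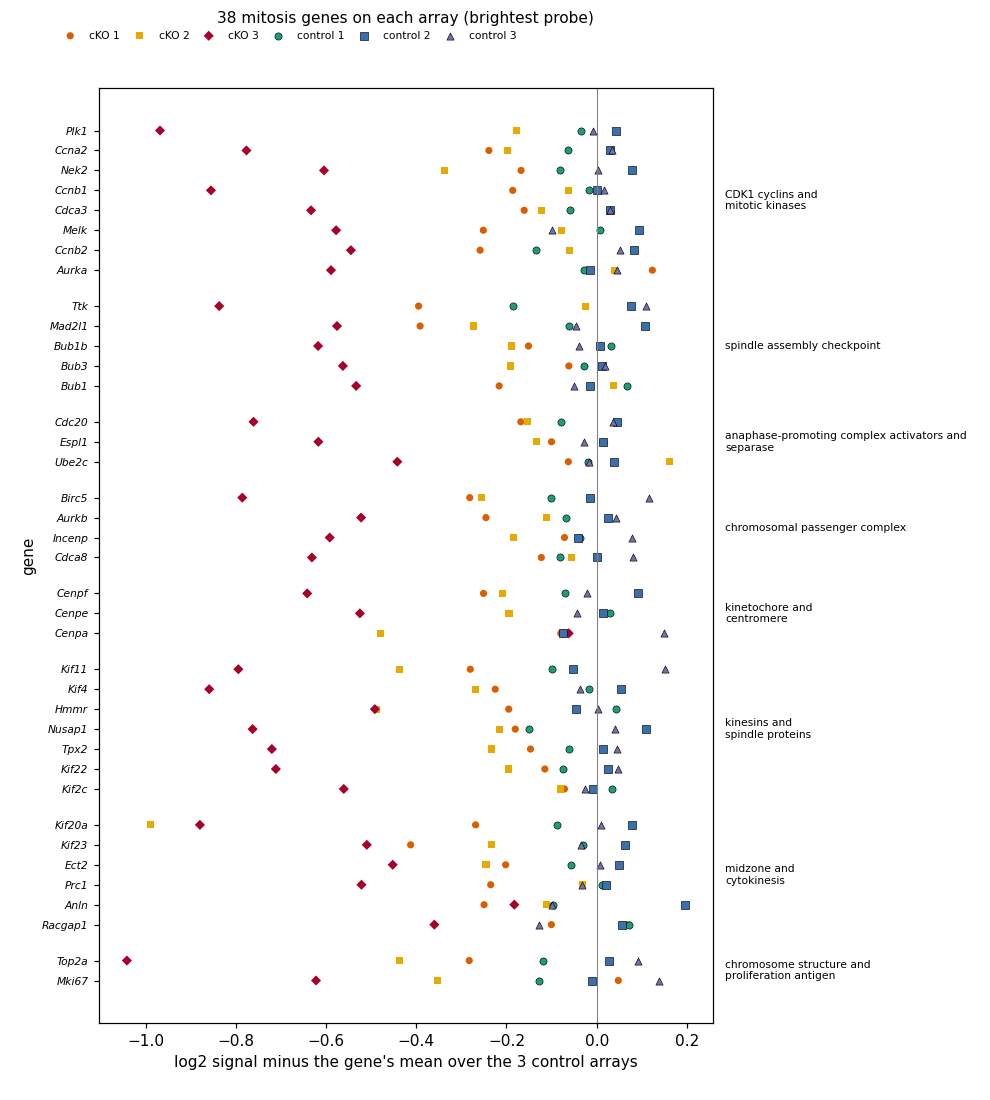
Log2 signal of each member on each array minus the mean of its 3 control arrays (x axis), with the members grouped by role (y axis). The array cKO 3 (dark red diamonds) holds the lowest value of 35 of 38 members, the control arrays lie close to 0, and coinciding points are drawn over each other.

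Without cKO array 3 the median log2 fold change of the members was −0.18, 36 of 38 were below 0, 12 were lower at that unadjusted threshold (10.9% of all tested probes in the same fit) and 0 passed the adjustment in limma. Aurka (0.08) and Ube2c (0.05) were then above 0. With the slide as a block, which rests on control array 1 as the slide's sole control, the median was −0.28, all 38 stayed below 0, and in limma the count lower at an unadjusted p under 0.05 was 0 (2.65% of all tested probes). On slide 1 without cKO array 3, which leaves 2 cKO arrays and 1 control array, the median was −0.14 and 36 were below 0. The sign was thus kept by most members in each of these fits. The median was nearer to 0 in each, though single members such as Racgap1 (−0.20 with the slide as a block against −0.13) and Cenpa (−0.28 without cKO array 3 against −0.21) were farther from it.

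Some markers also differed on the same arrays. Foxp3, the factor that defines regulatory T cells, had 3.16, 3.12 and 2.45 on the cKO arrays and 3.42, 3.42 and 3.76 on the control arrays, and was also lowest on cKO array 3 (log2 fold change −0.62, adjusted p = 0.192 from limma). Ctla4, an inhibitory receptor of regulatory T cells, went the other way, with 0.57, 0.95 and 1.16 in cKO and 0.24, 0.11 and −0.47 in control (log2 fold change 0.94, adjusted p = 0.135 from limma). The other iTreg markers, Il2ra and Tnfrsf18, had log2 fold changes of −0.56 and 0.40. The linear signals of the 4 iTreg markers summed to 170 to 194 times the 75th percentile in cKO and 137 to 174 times in control. The 5 T cell markers summed to 168 to 211 in cKO and 151 to 159 in control, and the 2 CD8 T cell markers to 3.87 to 4.34 in cKO and 4.42 to 5.61 in control. Such sums follow their brightest probes and do not measure the share of a cell type. The T cell markers went both ways, with log2 fold changes above 0 for Cd3d (0.38), Cd3g (0.74) and Cd4 (0.66). Those of Cd3e (−0.28) and Lck (−0.09) were below 0. The 4 B cell markers summed to 0.537 to 1.26 in cKO and 0.372 to 0.617 in control, the 5 myeloid markers to 0.152 to 1.20 and 0.301 to 0.320, and the 3 erythroid markers to 0.451 to 1.04 and 0.0950 to 0.309. The 2 NK cell markers summed to at most 0.0618. The part of these differences in the levels of the mitosis genes was not tested.

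The 8 genes of the first role group encode cyclins that activate CDK1, mitotic kinases and, in Cdca3, a trigger of mitotic entry. Their median log2 fold change was −0.34, 5 of 8 had groups without overlap, and 1 was lower at an unadjusted p under 0.05. These counts and those of the other role groups stand beside 20.7% and 11.4% over all tested probes. Plk1 encodes the Polo kinase that promotes mitotic entry, centrosome maturation and cytokinesis, and its probe (NM_011121) lies on chromosome 7 from 129313220 to 129313279 in mm9. It read 4.75, 4.75 and 3.96 on cKO arrays 1 to 3 and 4.89, 4.97 and 4.92 on control arrays 1 to 3. The first 2 cKO arrays sat just below the controls and the last far below them, with a log2 fold change of −0.44 (SE 0.23, adjusted p = 0.286 from limma). Ccna2 encodes cyclin A2, which acts in S phase and at mitotic entry (NM_009828, chromosome 3 from 36463978 to 36464037). It read 4.51, 4.55 and 3.97 in cKO and 4.69, 4.78 and 4.78 in control. All cKO arrays lay below all control arrays, with a log2 fold change of −0.40 (SE 0.18, adjusted p = 0.229 from limma).

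The B cyclins Ccnb1 (−0.37) and Ccnb2 (−0.29), which form the mitotic CDK1 complexes, had log2 fold changes near the median, but the groups of Ccnb2 overlapped. Nek2 (−0.37), a kinase that separates the centrosomes, was the 1 member of this group with an unadjusted limma p under 0.05. Cdca3 (−0.31), a trigger of mitotic entry, and Melk (−0.30), a kinase of cycling cells, lay close to each other. Aurka, the kinase of the spindle poles, had −0.14 with a 95% interval of −0.63 to 0.35. Its cKO array 1 (4.38) was the highest of all 6 and its cKO array 3 (3.67) the lowest, so its mean difference came from that 1 array.

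The 5 spindle checkpoint genes had a median log2 fold change of −0.32, with 3 of 5 without overlap. Ttk encodes the MPS1 kinase that recruits the checkpoint proteins to unattached kinetochores (NM_009445, chromosome 9, annotated from 83758726 to 83761669). It read −1.60, −1.23 and −2.04 in cKO and −1.39, −1.13 and −1.10 in control. The array cKO 2 lay above control array 1, so the groups overlapped, with a log2 fold change of −0.42 (SE 0.22, adjusted p = 0.291 from limma). Mad2l1 encodes MAD2, which binds and inhibits CDC20 (NM_019499, chromosome 6 from 66488986 to 66489045). It read 1.43, 1.55 and 1.25 in cKO and 1.76, 1.93 and 1.78 in control. Its 3 cKO arrays all lay below the controls, with a log2 fold change of −0.41 (SE 0.12, adjusted p = 0.156 from limma). It kept −0.33 without cKO array 3. The other 3 genes, Bub1b (−0.32), which encodes the BUBR1 subunit of the checkpoint complex, Bub3 (−0.27), which carries BUB1 and BUBR1 to kinetochores, and the kinase gene Bub1 (−0.24), had intervals that reached above 0.

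The checkpoint's target, the anaphase-promoting complex, is represented by its activator Cdc20, its E2 enzyme Ube2c and, downstream of it, separase (Espl1). Cdc20 (NM_023223, chromosome 4 from 118105536 to 118105595) read 5.03, 5.05 and 4.44 in cKO and 5.12, 5.24 and 5.24 in control. The cKO arrays were below the controls, and cKO array 3 stood apart from the other 2, with a log2 fold change of −0.36 (SE 0.19, adjusted p = 0.283 from limma). Espl1, the protease that opens cohesin rings (NM_001014976, chromosome 15, annotated from 102153644 to 102153882), read 1.38, 1.35 and 0.86 in cKO and 1.50, 1.49 and 1.45 in control. Its log2 fold change was −0.28 (SE 0.16, adjusted p = 0.317 from limma), and −0.12 without cKO array 3. Ube2c had −0.11, the smallest difference of all members, and its cKO array 2 (5.22) was the highest of the 6 arrays.

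The 4 genes of the chromosomal passenger complex, which corrects wrong attachments at the centromere and later moves to the midzone, had log2 fold changes of −0.44 to −0.27. Birc5 encodes survivin, the subunit that docks the complex on centromeric chromatin (NM_001012273, chromosome 11 from 117716959 to 117717018). It read 6.01, 6.03 and 5.50 in cKO and 6.19, 6.27 and 6.41 in control. The groups did not overlap, and the log2 fold change was −0.44 (SE 0.17, adjusted p = 0.207 from limma). Aurkb encodes the complex's kinase (NM_011496, chromosome 11 from 68865037 to 68865096). It read 1.29, 1.43 and 1.02 in cKO and 1.47, 1.56 and 1.58 in control, again without overlap, with a log2 fold change of −0.29 (SE 0.13, adjusted p = 0.244 from limma). The scaffold Incenp (−0.28) and borealin (Cdca8, −0.27) differed from Aurkb by less than their standard errors, and the groups of Cdca8 overlapped.

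Of the 3 kinetochore and centromere genes, Cenpf encodes a large outer kinetochore protein that accumulates in G2 (NM_001081363, chromosome 1 from 191465934 to 191465993). It read 3.15, 3.20 and 2.76 in cKO and 3.33, 3.50 and 3.38 in control. The groups were separate, with a log2 fold change of −0.37 (SE 0.15, adjusted p = 0.212 from limma). Cenpe encodes the kinesin that carries chromosomes to the metaphase plate (NM_173762, chromosome 3 from 134936387 to 134936446). It read 4.29, 4.29 and 3.96 in cKO and 4.51, 4.50 and 4.44 in control, with a log2 fold change of −0.30 (SE 0.13, adjusted p = 0.220 from limma). Cenpa, the histone H3 variant that marks centromeres, was 1 of only 3 members whose lowest value was not on cKO array 3. Its cKO arrays read 1.78, 1.38 and 1.80 against 1.79, 1.79 and 2.01 in control, an overlap, with a log2 fold change of −0.21.

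The 7 kinesins and spindle proteins had the groups without overlap in 7 of 7 and a median log2 fold change of −0.39. Kif11 encodes Eg5, the motor that pushes the spindle poles apart (NM_010615, chromosome 19 from 37495755 to 37495814). It read 1.64, 1.49 and 1.13 in cKO and 1.82, 1.87 and 2.07 in control. All cKO arrays were lower, with a log2 fold change of −0.50 (SE 0.16, adjusted p = 0.171 from limma), and −0.36 without cKO array 3. Kif4 encodes a chromokinesin that acts on chromosome arms and in the midzone (NM_008446, chromosome X from 97922126 to 97922185). It read 2.62, 2.58 and 1.99 in cKO and 2.83, 2.90 and 2.81 in control, with a log2 fold change of −0.45 (SE 0.19, adjusted p = 0.221 from limma).

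Hmmr (−0.39), which encodes a spindle-associated hyaluronan receptor, had an unadjusted limma p under 0.05, and its cKO arrays 2 and 3 both read 1.57. It had −0.34 without cKO array 3 and −0.44 with the slide as a block. Nusap1 (−0.39), a microtubule bundling protein, Tpx2 (−0.37), the activator of Aurora A on the spindle, Kif22 (−0.34), a chromosome-arm motor, and Kif2c (−0.24), which depolymerizes wrongly attached microtubules, had their lowest value on cKO array 3.

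The largest difference of all members was in the midzone and cytokinesis group, whose 6 genes had a median of −0.28 and 3 of the 10 lower at an unadjusted p under 0.05. Kif20a encodes MKLP2, the kinesin that brings the passenger complex to the midzone (annotated Y09632). It read 3.84, 3.12 and 3.22 in cKO and 4.02, 4.18 and 4.11 in control. On this probe cKO arrays 2 and 3 were far below the controls and cKO array 1 was nearer to them. The log2 fold change was −0.71 (SE 0.20, adjusted p = 0.153 from limma). It was −0.63 without cKO array 3 and −0.62 with the slide as a block. A second, dimmer Kif20a probe read 2.91, 2.97 and 2.37 in cKO and 3.24, 3.39 and 3.30 in control. There cKO array 2 was close to cKO array 1, and the log2 fold change was −0.57 (SE 0.18, adjusted p = 0.170 from limma). Kif23 encodes MKLP1, the motor of centralspindlin (NM_024245, chromosome 9, annotated from 61767733 to 61768853). It read 1.59, 1.76 and 1.49 in cKO and 1.97, 2.06 and 1.96 in control, with a log2 fold change of −0.39 (SE 0.11, adjusted p = 0.156 from limma).

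Ect2 (−0.30), the exchange factor that activates RhoA at the cleavage site, was lower at an unadjusted limma p under 0.05. Racgap1, which encodes the partner of MKLP1 in centralspindlin, had −0.13 with overlapping groups, and −0.02 without cKO array 3. Prc1 (−0.26) crosslinks the midzone microtubules. Anln (−0.18), the scaffold of the contractile ring, was lowest on cKO array 1 rather than 3.

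Top2a and Mki67 stand for chromosome structure and for proliferation as such. Top2a encodes topoisomerase II alpha, which untangles sister chromatids (NM_011623, chromosome 11, annotated from 98857244 to 98858058). It read 3.25, 3.09 and 2.49 in cKO and 3.41, 3.56 and 3.62 in control, without overlap. Its log2 fold change of −0.59 (SE 0.21, adjusted p = 0.191 from limma) was second in size to that of Kif20a, and was −0.36 without cKO array 3. Mki67 encodes Ki-67, the coat protein of mitotic chromosomes used as a label of cycling cells (NM_001081117, chromosome 7 from 142881591 to 142881650). It read 6.30, 5.89 and 5.63 in cKO and 6.12, 6.24 and 6.39 in control. The array cKO 1 lay above 2 of the 3 control arrays, and the log2 fold change was −0.31 (SE 0.19, adjusted p = 0.347 from limma). A second, dimmer Mki67 probe read 4.18, 3.13 and 3.51 in cKO and 4.14, 4.22 and 4.33 in control. There cKO array 2 was the lowest and the groups overlapped, with a log2 fold change of −0.62 (SE 0.27, adjusted p = 0.225 from limma).

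**Figure D3:**
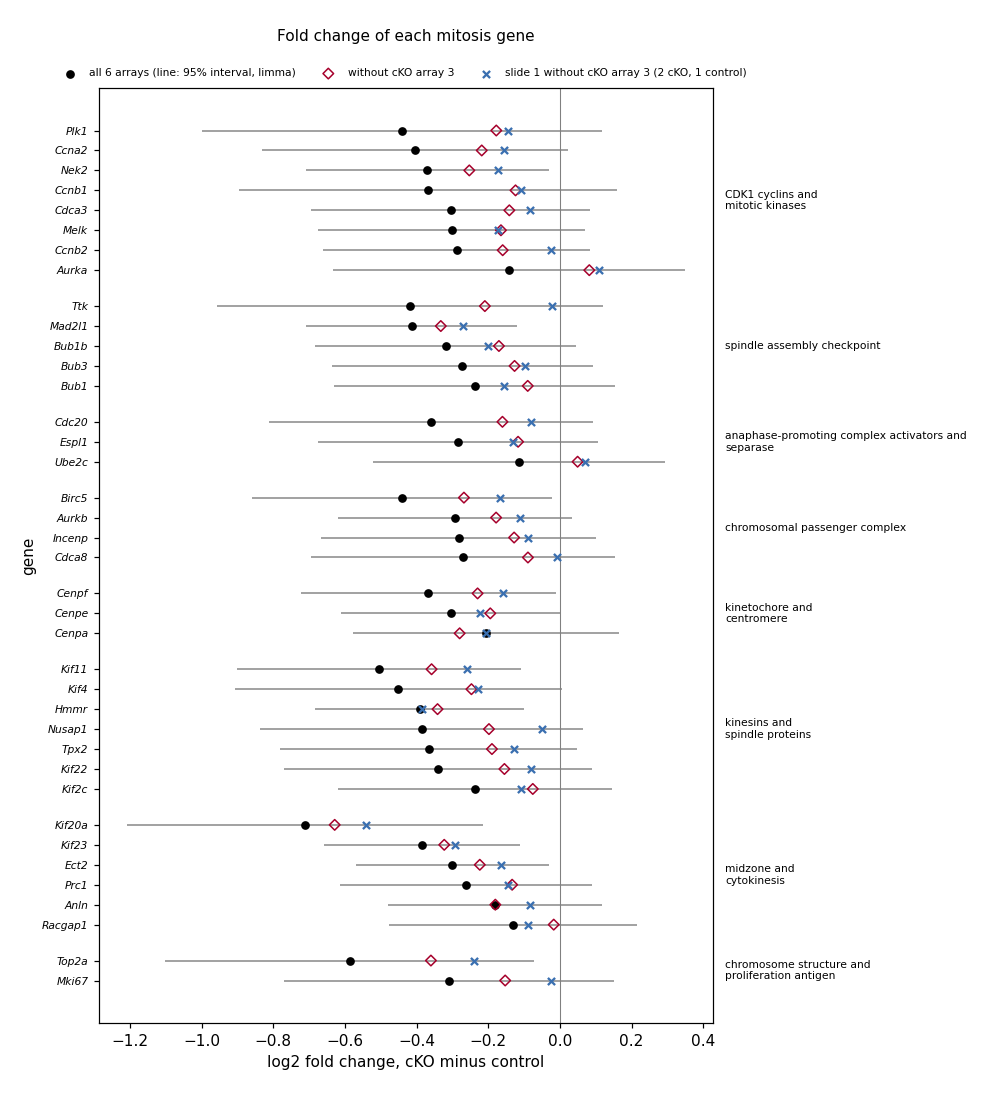
Log2 fold change, cKO minus control, of each member from all 6 arrays (black points, with 95% limma intervals as lines), without cKO array 3 (open diamonds) and on slide 1 without cKO array 3 (crosses). All 38 black points lie below 0, the intervals of 10 do not reach 0, and Aurka and Ube2c are above 0 without cKO array 3.

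The array held 68 probes for the 38 members, of which 65 were tested, and 21 members had more than 1 tested probe. Of the 27 tested probes that were not the brightest, 24 were below 0 and 3 above. All 3 probes above 0 were dim. The largest was a Cenpa probe annotated with the cDNA AK165029 on chromosome 5 from 30971579 to 30971638, which read −4.05, −2.95 and −2.59 in cKO and −6.10, −7.01 and −5.83 in control. It was well above background on all 3 cKO arrays and on no control array, so its signal was at least 6.74-fold higher in cKO. It passed the filter on dim probes only through the cKO arrays, so no test is given for it. The Cenpa probe for the RefSeq transcript NM_007681 lies on the same chromosome from 30976729 to 30976788 and had −0.21, as above. The 2 Cenpa probes thus disagreed in direction, and which transcript the dim one reads was not tested. A dim Melk probe (AK048803) had a log2 fold change of 1.80 with an SE of 0.96, and its arrays overlapped. The second Cenpf probe had 0.25 with an SE of 0.25.

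**Figure D4:**
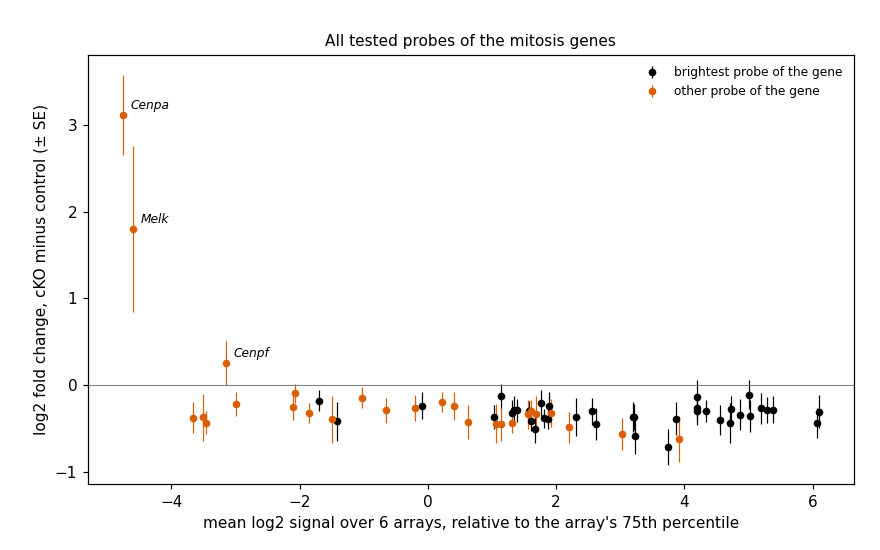
Log2 fold change with its standard error (y axis) against the mean log2 signal over 6 arrays (x axis) for the 65 tested probes of the members. The brightest probe of each gene (black) is below 0 in every case, and the 3 other probes above 0 (labelled with their gene) are among the dimmest.

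Genes that work with the members are given by list, with counts at an unadjusted p under 0.05 to be read against the 11.4% of all tested probes that were lower and the 11.5% that were higher. Among 12 genes for CDK1 and its regulators the median log2 fold change was −0.35, with 11 below 0, and 3 lower and 1 higher at an unadjusted p under 0.05. They include Ccnf (−0.82, adjusted p = 0.129 from limma), an F-box cyclin, and Bora (−0.37), the activator of Aurora A towards Plk1. Among 18 genes for the factors that control G2/M transcription the median was −0.31, 13 were below 0 and 5 above (up to 0.56), and 6 were lower at that threshold, among them Rbl1 (−0.54), which encodes the pocket protein p107, and Lin9 (−0.48), a core subunit of MuvB. Among 35 further kinetochore and checkpoint genes 35 were below 0, the median was −0.37 and 13 were lower at that threshold, with Cenpi (−0.47) and Ska2 (−0.62) at the smallest p.

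Among 31 further spindle, centrosome and cytokinesis genes the median was −0.37, 29 were below 0 and 15 were lower at an unadjusted p under 0.05. Depdc1b read 1.75, 1.58 and 1.18 in cKO and 2.43, 2.86 and 2.50 in control, a log2 fold change of −1.09 (SE 0.19, adjusted p = 0.0896 from limma), and the kinesin gene Kif15 had −0.67. Among 20 cohesin and condensin genes the median was −0.31, 17 were below 0 and 4 were lower at that threshold, with the cohesin acetyltransferase gene Esco2 at −0.56 and the condensin II gene Ncapd3 at −0.29. The 15 genes for the anaphase-promoting complex and its partners had a median of −0.09, 13 were below 0 and 1 was lower at that threshold. That 1 was Fbxo5 (−0.46), which encodes the inhibitor EMI1, and the E2 gene Ube2s had −1.17 with an SE of 0.50. The core subunits of the complex are present through much of the cycle, unlike its mitotic activators.

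The 38 DNA replication genes, which act in S phase before mitosis, had a median log2 fold change of −0.47, 37 of them were below 0 and 10 were lower at an unadjusted p under 0.05. Rrm2, the regulated subunit of ribonucleotide reductase, read 3.01, 2.26 and 2.65 in cKO and 4.06, 3.80 and 3.85 in control, a log2 fold change of −1.26 (SE 0.20, adjusted p = 0.0734 from limma). On cKO array 3 the median of the replication genes relative to their control mean was −0.997, against −0.61 for the mitosis genes, and without that array the fold changes had medians of −0.22 and −0.18. In none of the 7 lists did a gene pass the adjusted p of 0.05 in limma. The lists rest on the same 6 arrays as the mitosis genes and are not independent of them.

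**Figure D5:**
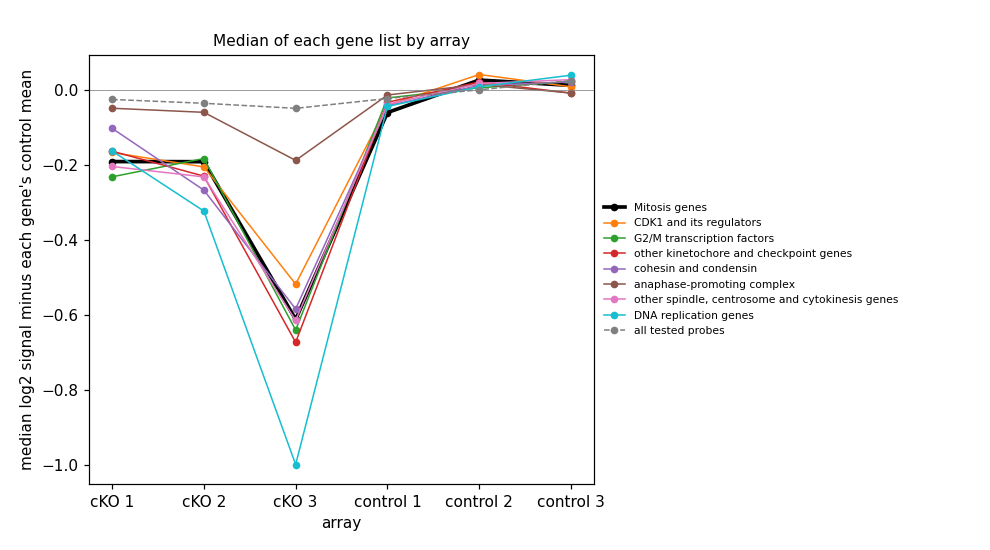
Median over each gene list of the log2 signal minus the gene's control mean (y axis) on each of the 6 arrays (x axis). The mitosis genes (thick black line) read −0.19, −0.19 and −0.61 on cKO arrays 1 to 3, the DNA replication genes reach −0.997 on cKO array 3, and all tested probes (dashed) stay between −0.05 and 0.03.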

How the data were processed

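Per the labels and the file headers, Cy3-labelled cRNA from 0.5 μg of RNA was hybridized to 1 array per mouse, and Agilent Feature Extraction (10.7.3.1 in the headers, 9.1 in the submitters' processing notes) gave the deposited intensities, which the authors did not normalize between arrays. The authors also deposited a table of log2 values with column medians of about 6.15, whose normalization is not given in the sources used here. It was used as an alternative, and 0 of its columns were unassigned. Positions are those of the array annotation (mm9).

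From the processed intensity, log2 minus the log2 of each array's 75th percentile was computed, after 123 to 140 outlier spots per array were dropped and the spots of a probe were averaged. The 22281 probes that stood well above background on 3 or more arrays were fitted with limma 3.58.1 (lmFit, eBayes; R 4.3.3, statmod 1.5.0) with Benjamini-Hochberg adjustment and a threshold of 0.05. A missing value (19 tested probes) left that array out of that probe's fit. The arrays had 0 saturated spots, and their number limits the precision. The limma fit was also run on simulated data with changes larger than those of the members. Its noise was independent for each probe, so it cannot show how the fit handles differences of this size or a shift shared by an array's genes. Figures were drawn with matplotlib 3.10.9 in Python 3.11.15.

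The members and lists were chosen with earlier results of these data known. Every member is given with its fold change. In each role group the 2 largest differences are described in full, and in each further list the 2 genes with the smallest p are named, except for 1 gene that is not reported here. Cdc25b and the second Mki67 probe were named after their values were seen. So were the Cenpa, Melk and Cenpf probes above 0 and the members that lost their sign. Of the members' accessions 36 were found in the RefSeq table, with the same symbol in all 36. Symbols for the lists follow the array's annotation.

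The arrays are of separate mice, so the spread is between mice. The replicate numbers are not stated to pair mice, so no pairing was used. The deviations of same-numbered arrays correlated at −0.14, 0.01 and −0.19, and those of differently numbered arrays at −0.17 to 0.27. With 3 arrays a group these correlations cannot decide whether mice were paired. Alternatives were other background corrections, normalizations, filters, variance models, array weights, slide and replicate blocks, the methods' t-test, the mean over a gene's probes and each array left out. Slide 1 without cKO array 3 was added after seeing the data.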

Additional observations from a re-analysis of the deposited data

How the results depend on the processing

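Of 21 alternatives, 16 kept all 38 members below 0, and the median log2 fold change ran from −0.51 to −0.14, the lower end under normexp with the 75th percentile (−0.51, where all probes had a median of 0.11, 2.39% of them were lower and 5.05% higher at an unadjusted p under 0.05, and Anln was at 0.26). The members above 0 elsewhere were Aurka and Ube2c (array weights, without cKO array 3, and slide 1 without it) and Cenpa and Melk (mean over a gene's probes). The number of members lower at an unadjusted p under 0.05, 10 in the report, was 3 under normexp with the 75th percentile, 6 each with the array median as the scaling point (8.32% of all probes), without a filter on dim probes (5.64%) and with the methods' t-test (8.68%), 16 with array weights (18.1%), and 0 each with the slide as a block (2.65%), on slide 1 alone (1.98%) and on slide 1 without cKO array 3 (2.92%). With the replicate block it was 4 (7.30%). Leaving out 1 array gave 3 (without control array 2) to 15 (without cKO array 1 or 2), and 4 and 5 without control arrays 3 and 1, while the share over all probes ran from 5.16% to 15.3%. The cause of these shifts was not tested. Array weights gave cKO array 3 a weight of 0.173 and control array 2 a weight of 5.05. They brought 2 of the 38 members under an adjusted p of 0.05 in limma, against 2205 of the 22281 tested probes. The 2 members were Kif20a (−0.86, adjusted p = 0.0378 from limma) and Hmmr (−0.40, adjusted p = 0.0471 from limma), each read by its brightest probe only. Every other alternative brought 0 members under it. The mean over a gene's probes gave 1 member higher at an unadjusted p under 0.05, Cenpa (1.45), through its dim probe, which passed the filter only through the cKO arrays, so that this call is no evidence of a difference. Among the 16 members described in full, the other 335 values kept their direction and side of the threshold. Slide and genotype are partly confounded, and 3 arrays a group limit what any single gene can show.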

Other observations

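Among the regulators of CDK1, Cdc25b, a phosphatase that activates CDK1 at mitotic entry, went the other way from the mitosis genes. It read 4.07, 4.13 and 4.23 on the cKO arrays and 3.87, 3.92 and 3.73 on the control arrays, a log2 fold change of 0.30 (SE 0.11, adjusted p = 0.186 from limma). Its 3 cKO values lay above its 3 control values, and its highest value was on cKO array 3, the array on which most mitosis genes were lowest. The E2 gene Ube2s, which extends ubiquitin chains for the anaphase-promoting complex, was spread widely over the cKO arrays, with 5.81, 4.45 and 3.74 against 5.73, 5.74 and 6.03 in control.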
